A study of Mus musculus with 6 samples.

Results

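The small heat shock proteins and the stress-inducible Hsp70 chaperones of skeletal muscle were examined in the tibialis anterior (TA) muscle of aged mice given BML-260. The genes are Hspb1, Hspb2, Hspb3, Hspb6, Hspb7, Hspb8 and Cryab, which encode small heat shock proteins, Bag3, which encodes a cochaperone of both families, and Hspa1a and Hspa1b, which encode stress-inducible Hsp70. They were chosen by name and matched to the counts by gene identifier, which gave 10 of the 45777 genes in the count table. All 10 passed the filter on low counts and were among the 16188 genes tested. Gene symbols were taken from the authors' tables, and from RefSeq for genes without a symbol there.

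Small heat shock proteins bind unfolding proteins without using ATP and hold them for refolding or degradation, while Hsp70 uses ATP to refold its clients or to hand them on. In striated muscle, small heat shock proteins sit on the contractile and intermediate filaments, where stretch and contraction unfold proteins. Bag3 links Hspb8 to Hsp70 in chaperone-assisted selective autophagy, a pathway that removes damaged filamin and other Z-disc proteins. Heat shock factors switch on many of these genes by binding heat shock elements, which are inverted repeats of a short GAA block.

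Libraries came from the TA of male C57BL/6J mice, 1 library per mouse, with 3 mice given vehicle (DMSO and Tween 80) and 3 mice given BML-260 at 5 mg/kg by intraperitoneal injection once a day over 1 month. BML-260 is a small molecule used to inhibit the phosphatase DUSP22. The labels give the strain of both groups only as C57BL/6J, and the study's reagent list enters its C57BL/6J mice under the identifier B6.129P2Gpr37tm1Dgen/J, which names a targeted allele of Gpr37. The age was 24 months by the labels, and the study's text also gives older ages. Total RNA of whole muscle was sequenced, so fewer cells of a type and less RNA per cell cannot be told apart. The comparison asks which genes differ between aged muscle with and without the compound. There was no young group and no heat or exercise group, so the genes were not measured under a known stress.

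The libraries held from 39522890 to 56998875 counts. The TA identity was visible in the fast fiber markers, which held from 8.75% to 10.9% of TPM, a level scaled for transcript length and library total, against 0.0144% to 0.129% for the slow fiber markers. Vehicle replicate 3 stood apart: its correlation of log2 CPM (counts scaled to a common library size with TMM factors) with the other libraries ran from 0.940 to 0.948 across genes, against 0.972 to 0.985 among the other 5. It had the highest value of the 6 libraries for 31.4% of the tested genes. The summed TPM of 10 slow fiber markers was 1286 there, 152 to 182 in the other vehicle libraries and 144 to 273 with BML-260. The 4 erythroid markers summed to 7411 there, 1641 to 1779 in the other vehicle libraries and 1411 to 1853 with BML-260. The 4 Schwann cell markers summed to 57.7 there, 9.33 to 10.7 in the other vehicle libraries and 15.4 to 18.1 with BML-260. The 8 macrophage markers summed to 545 there, 128 to 129 in the other vehicle libraries and 80.0 to 97.8 with BML-260, and 7 of the 8 passed the threshold used below as lower with BML-260. Neutrophil markers with a TPM value summed to 801 there, 23.8 and 165 in the others and 6.70 to 12.1 with BML-260. Of the 6 neutrophil markers listed, 5 could be tested, and all 5 passed as lower. The denervation markers with a TPM value summed to 92.8 to 296 in the vehicle libraries and to 39.9 to 59.7 with BML-260. Of the 8 denervation markers listed, 6 passed as lower, as did 3 of 10 slow fiber, 2 of 4 erythroid and 0 of 4 Schwann cell markers. Over all tested genes 4.86% passed as lower. Of 71 markers, 0 had no count in all 6 libraries, and Ly6g, a neutrophil marker, had a count of 0 in all 3 BML-260 libraries and in 2 vehicle libraries. The part of these cells and of vehicle replicate 3 in the results was not tested, and values without that library stand beside the results that it moves most.

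The DNA upstream of the start of 3 of the genes is shown for its heat shock element pairs. The windows hold 250 bases up to the last base before the start, from RefSeq on GRCm38.p6, 5′ to 3′ on the gene's strand. Capitals mark the pair GAANNTTC. Hspb1 is shown for its 2 pairs, Hspa1a as the textbook heat shock gene, and Hspb8 because it had the clearest difference between the groups.
Hspb1 (chr5:135887669-135887918, plus strand): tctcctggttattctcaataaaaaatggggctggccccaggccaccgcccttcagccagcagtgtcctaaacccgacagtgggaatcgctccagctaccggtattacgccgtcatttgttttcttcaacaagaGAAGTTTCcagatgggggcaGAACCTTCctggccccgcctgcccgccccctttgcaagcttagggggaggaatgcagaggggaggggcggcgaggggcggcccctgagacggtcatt
Hspa1a (chr17:34972157-34972406, minus strand): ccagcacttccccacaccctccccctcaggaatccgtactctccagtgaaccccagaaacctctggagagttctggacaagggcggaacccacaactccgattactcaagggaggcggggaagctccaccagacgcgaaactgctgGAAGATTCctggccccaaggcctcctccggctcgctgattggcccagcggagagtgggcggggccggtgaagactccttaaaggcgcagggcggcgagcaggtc
Hspb8 (chr5:116422865-116423114, minus strand): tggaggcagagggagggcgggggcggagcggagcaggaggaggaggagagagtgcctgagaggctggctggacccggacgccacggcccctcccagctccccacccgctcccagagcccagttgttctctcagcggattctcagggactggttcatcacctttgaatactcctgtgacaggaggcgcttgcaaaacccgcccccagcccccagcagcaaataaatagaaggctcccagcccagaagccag

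Windows were found for 8 of the 10 genes, all but Hspb2 and Cryab. Searching GAANNTTC and TTCNNGAA, each of which reads the same on both strands, found a pair in 5 of the 9 windows of these 8 genes (Hspb6 has 2 windows), beside 12.8% of 32851 windows of this length across the genome's genes. The pairs of Hspb1 lay at -117 to -110 and at -97 to -90, counted from the first base of the transcript. The pair of Hspa1a lay at -104 to -97, and that of Hspa1b lay at the same place. The upstream windows of Hspa1a and Hspa1b were the same at 247 of 250 bases. Hspb3 had a pair at -224 to -217, and Hspb6 had one at -120 to -113 in 1 of its windows. No pair was found in the windows of Hspb7, Hspb8 and Bag3, which says only that these letters are not in these windows.

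The levels of the 10 genes in TA spanned a wide range. On the TPM scale, which allows comparison between genes, Cryab, which encodes alphaB-crystallin, a chaperone of desmin, had the highest mean level of 663 ± 191 (SD, n = 6). Hspb8 followed with 407 ± 100.4 (SD, n = 6), and Hspb7, Hspb6 and Hspb1 had means of 252, 249 and 220. Hspb2 had a mean of 85.7, Hspb3 of 49.2 and Bag3 of 45.2. The inducible Hsp70 genes were far lower, with means of 4.50 for Hspa1a and 4.09 for Hspa1b. The order of neighbours was kept in all 6 libraries with no overlap of their ranges for Hspb1 over Hspb2, for Hspb2 over Hspb3 and for Bag3 over Hspa1a. Hspb7 was above Hspb6 in 2 of 6 libraries and Hspa1a above Hspa1b in 3 of 6, so that neither order was larger than the spread. Summed over the 10 genes, the level was 1912, 1637 and 2714 TPM in vehicle replicates 1, 2 and 3, and 1441, 1981 and 2199 TPM in BML-260 replicates 1, 2 and 3, so that the groups overlapped.

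**Figure D1:**
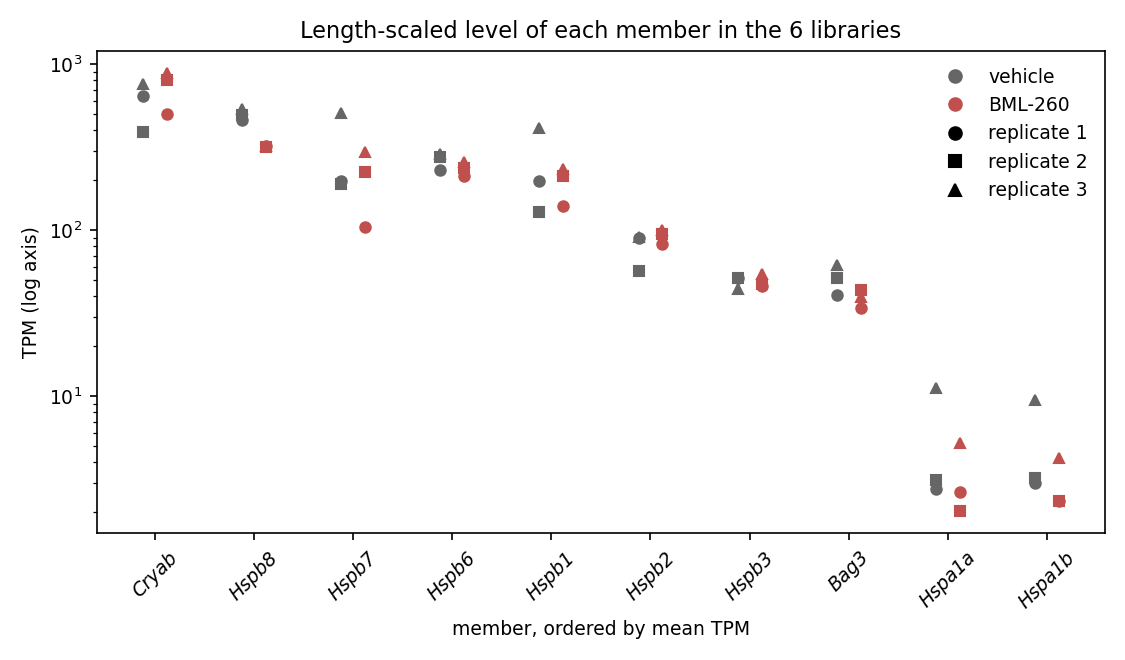
TPM of each gene (log axis) in the 6 TA libraries, with genes ordered by mean TPM, grey for vehicle and red for BML-260, and the symbol giving the replicate. Levels run from the Cryab mean of 663 TPM down to the Hspa1b mean of 4.09 TPM. Vehicle replicate 3 (grey triangle) is the highest point for Hspb8, Hspb7, Hspb6, Hspb1, Bag3, Hspa1a and Hspa1b.

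To compare the groups, edgeR's quasi-likelihood test was applied, and each difference is given as the log2 fold change of BML-260 over vehicle. A gene was called at an unadjusted p under 0.05 with a fold change of at least 1.3. Of the 10 genes, 1 was called, Hspb8, which was lower with BML-260, while 5.75% of all tested genes were called in either direction, 4.86% as lower and 0.896% as higher. By log2 fold change, 7 of the 10 were lower and 3 higher, and 50.5% of all tested genes were lower. The median log2 fold change was -0.18 over the 10 genes and -0.0039 over all tested genes. Without vehicle replicate 3, 5 of the 10 were lower and their median was -0.012, and without BML-260 replicate 1 it was 4 of 10 with a median of 0.0035. Groups without overlap were found for 1 of the 10, again Hspb8, and for 12.1% of all tested genes. With the edgeR p adjusted by Benjamini-Hochberg over all tested genes, 0 of the 10 genes and 0 of all 16188 genes had an adjusted p under 0.05, beside 1 of the 10 and 966 of all genes at an unadjusted p under 0.05. DESeq2's Wald test gave 95 genes with an adjusted p under 0.05, of which 0 were among the 10.

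**Figure D2:**
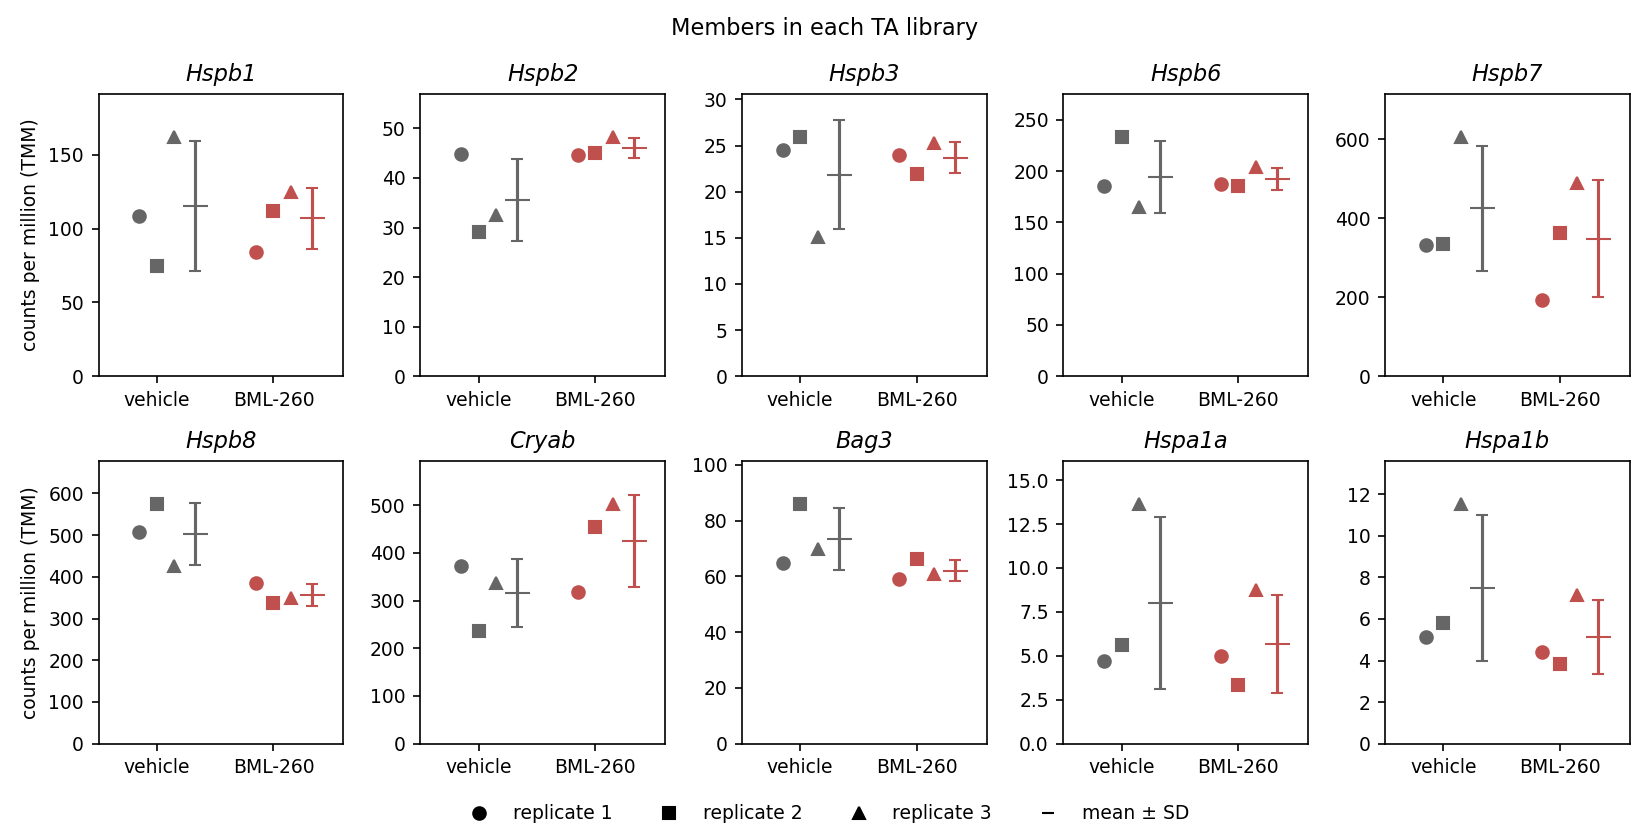
CPM (TMM-scaled counts, axes from 0) of each of the 10 genes in every library, grey for vehicle and red for BML-260, with the symbol giving the replicate and the bar the mean ± SD of 3 libraries. The groups are apart for Hspb8, at 425 to 574 with vehicle and 336 to 386 with BML-260, and overlap in the other 9 panels.

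Hspb8 (gene identifier 80888; chr5:116408491-116422864, minus strand) encodes Hsp22, the small heat shock protein that works with Bag3. Its CPM was 507, 574 and 425 in vehicle replicates 1, 2 and 3, and 386, 336 and 349 in BML-260 replicates 1, 2 and 3. Every BML-260 library was below every vehicle library, and the BML-260 libraries lay closer together. The log2 fold change was -0.49 (standard error 0.18), with a 95% interval of -0.90 to -0.08, or a level 1.41-fold higher with vehicle. By edgeR, the unadjusted p was 0.0241 and the Benjamini-Hochberg adjusted p was 0.788. In TPM the values were 458, 492 and 538 with vehicle and 319, 315 and 322 with BML-260, and the groups were again apart. Vehicle replicate 3 had the lowest CPM and the highest TPM of the vehicle libraries, so the place of that library within its group depends on the scale, whereas the separation of the groups does not. Without vehicle replicate 3 the log2 fold change was -0.59 (unadjusted p = 0.00164, edgeR). Hspb8 was lower in all 15 alternative fits, with log2 fold changes from -0.63 to -0.39, and was called in 11 of them. The call was lost when vehicle replicate 1 (-0.48), vehicle replicate 2 (-0.39), BML-260 replicate 2 (-0.45) or BML-260 replicate 3 (-0.47) was left out. A noncoding RNA gene that overlaps Hspb8 had from 0 to 9 counts, against 13218 to 26676 for Hspb8.

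Bag3 (29810; chr7:128523583-128546981, plus strand), the partner of Hspb8, did not pass the test. Its CPM was 64.7, 85.9 and 70.0 in vehicle replicates 1, 2 and 3, and 58.9, 66.3 and 60.8 in BML-260 replicates 1, 2 and 3. BML-260 replicate 2 was above vehicle replicate 1, so the groups overlapped. The log2 fold change was -0.25 (standard error 0.15), with a 95% interval of -0.60 to 0.11, and it stayed below 0 in all 15 alternative fits (-0.39 to -0.12). The ratio of Hspb8 to Bag3 in TPM was 11.2, 9.55 and 8.69 with vehicle and 9.37, 7.25 and 8.20 with BML-260. These ratios overlapped (exact permutation test, 2-sided, p = 0.2, and 0.6 with Benjamini-Hochberg adjustment over 3 ratios; the smallest p this design allows is 0.1).

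Cryab and Hspb2 had the highest log2 fold changes of the 10 genes, and neither passed the test. They are neighbours in opposite orientation, and Hspb2 (69253; chr9:50751072-50752354, minus strand) lies within the RefSeq span of Cryab (12955; chr9:50745951-50756636, plus strand). The use of strand in counting is not given in the sources used here, so how reads of their 1283 shared bases were assigned is uncertain. Cryab had a CPM of 373, 237 and 338 with vehicle and 318, 455 and 502 with BML-260. BML-260 replicate 1 fell among the vehicle libraries, and the other BML-260 libraries were above all of them. Its log2 fold change was 0.43 (standard error 0.24), with a 95% interval of -0.13 to 0.98 (adjusted p = 0.788, edgeR with Benjamini-Hochberg adjustment). Hspb2, which encodes a partner of myotonic dystrophy protein kinase, had a CPM of 44.8, 29.1 and 32.4 with vehicle and 44.7, 45.1 and 48.3 with BML-260. In CPM vehicle replicate 1 reached the level of the BML-260 libraries, and the other vehicle libraries were below it. In TPM vehicle replicate 3, at 91.3, also lay within the BML-260 range of 82.0 to 100. The log2 fold change of Hspb2 was 0.38 (standard error 0.18), with a 95% interval of -0.03 to 0.79 (adjusted p = 0.788, edgeR with Benjamini-Hochberg adjustment). Both genes were higher with BML-260 in all 15 alternative fits, Cryab from 0.26 to 0.60 and Hspb2 from 0.25 to 0.58, and each was called in 2 of them. The ratio of Hspb2 to Cryab in TPM was 0.139, 0.146 and 0.121 with vehicle and 0.164, 0.117 and 0.113 with BML-260, with overlap (exact permutation test, 2-sided, p = 0.8, and 0.8 adjusted over the 3 ratios).

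Hspb3 (56534; chr13:113662896-113663676, minus strand) encodes the protein that assembles with Hspb2 in muscle. Its CPM was 24.5, 26.0 and 15.0 with vehicle and 23.9, 21.9 and 25.3 with BML-260. In CPM only vehicle replicate 3 was apart, as the lowest of the 6 libraries. In TPM it was also the lowest, at 44.2, but close to BML-260 replicate 1 at 46.0. The log2 fold change of Hspb3 was 0.12 (standard error 0.21), and -0.088 without vehicle replicate 3. The ratio of Hspb2 to Hspb3 in TPM was 1.74, 1.09 and 2.07 with vehicle and 1.78, 1.98 and 1.84 with BML-260, with overlap (exact permutation test, 2-sided, p = 0.6, and 0.8 adjusted over the 3 ratios).

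Hspb6 (243912; chr7:30552535-30555443, plus strand), which encodes Hsp20, had the log2 fold change closest to 0 of the 10 genes. Its CPM was 185, 234 and 165 with vehicle and 188, 185 and 205 with BML-260. The BML-260 libraries lay within the range of the vehicle libraries. The log2 fold change was -0.016 (standard error 0.17), with a 95% interval of -0.41 to 0.38, and it was -0.12 without vehicle replicate 3.

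Hspb1 (15507; chr5:135887919-135889563, plus strand) and Hspb7 (29818; chr4:141420779-141425310, plus strand) encode Hsp27, which binds actin filaments, and a small heat shock protein that binds filamin C. Hspb1 had a CPM of 108, 74.9 and 162 with vehicle and 84.4, 112 and 125 with BML-260. Hspb7 had 332, 336 and 607 CPM with vehicle and 193, 362 and 489 CPM with BML-260. In both genes vehicle replicate 3 was the highest of the 6 libraries, and BML-260 replicate 3 was the next. The log2 fold changes were -0.11 (standard error 0.28) for Hspb1 and -0.29 (standard error 0.36) for Hspb7. Without vehicle replicate 3 both turned, to 0.22 for Hspb1 and 0.064 for Hspb7, and they also turned without BML-260 replicate 1, to 0.039 and 0.0041. The direction of both genes thus changed with a single library.

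Hspa1a (193740; chr17:34969359-34972156, minus strand) and Hspa1b (15511; chr17:34956429-34959238, minus strand) encode almost the same Hsp70 protein and lie 10120 bases apart. Their coding sequences on GRCm38 were identical at 1915 of 1926 aligned bases (99.4%), with an identical run of up to 638 bases, so the split of reads between them is uncertain. Hspa1a had a CPM of 4.72, 5.64 and 13.6 with vehicle and 4.97, 3.33 and 8.76 with BML-260. Hspa1b had 5.13, 5.80 and 11.5 CPM with vehicle and 4.39, 3.84 and 7.15 CPM with BML-260. In each gene vehicle replicate 3 was highest, BML-260 replicate 3 next and BML-260 replicate 2 lowest. Vehicle replicate 3 had 2.63 times the mean of the other vehicle libraries for Hspa1a and 2.11 times for Hspa1b. The log2 fold changes were -0.50 for Hspa1a (standard error 0.46, 95% interval -1.56 to 0.56) and -0.55 for Hspa1b (standard error 0.36, 95% interval -1.37 to 0.26). Without vehicle replicate 3 they were 0.13 and -0.093. These genes were the least abundant of the 10, with a smallest count of 156, and their intervals were wide enough to hold both the Hspb8 value and 0.

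**Figure D3:**
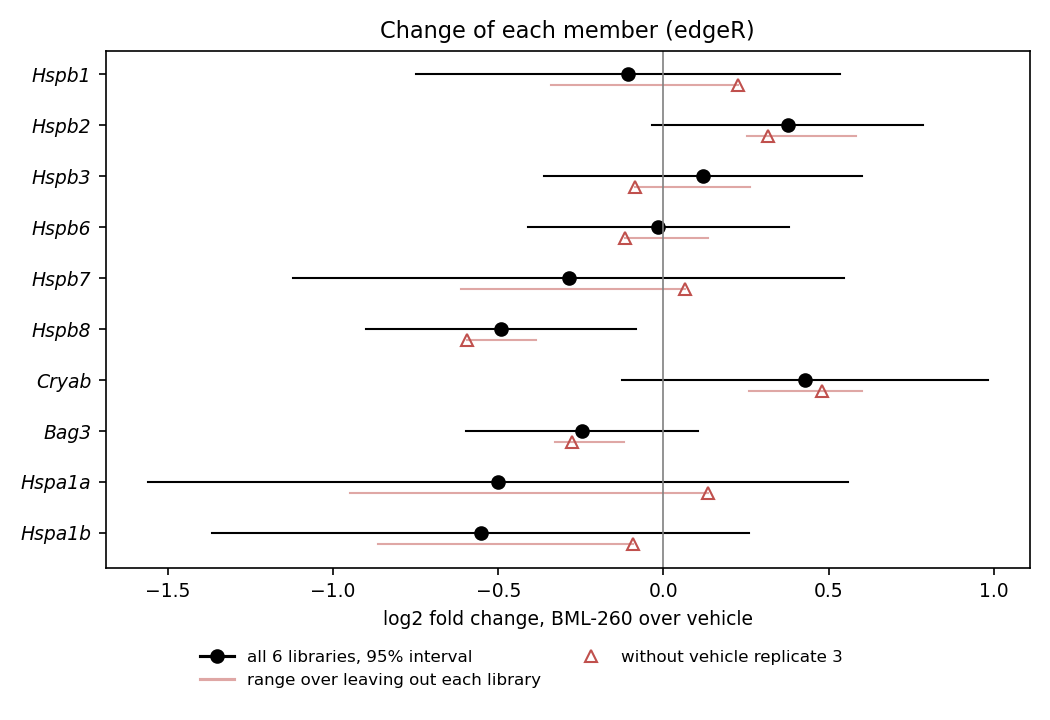
Log2 fold change of BML-260 over vehicle for each of the 10 genes from edgeR (black point, bar for the 95% interval), with the range over leaving out each of the 6 libraries (red line) and the value without vehicle replicate 3 (open triangle). The interval lies below 0 for Hspb8 and spans 0 for the other 9 genes, and the triangle lies on the other side of 0 from the point for Hspb1, Hspb3, Hspb7 and Hspa1a.

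Over the 10 genes, as over most tested genes, the libraries of the vehicle group were more spread than those of the BML-260 group. The highest CPM divided by the lowest was larger with vehicle for 8 of the 10 genes, and for 70.6% of 15746 tested genes with a count in every library. The median of this ratio over the 10 genes was 1.65 with vehicle and 1.32 with BML-260, beside 1.51 and 1.28 over those 15746 genes. The exceptions among the 10 were Hspb7 (1.83 with vehicle and 2.53 with BML-260) and, by very little, Cryab (1.577 and 1.580). Vehicle replicate 3 had the highest CPM for 4 of the 10 genes and vehicle replicate 2 for another 4, and the lowest CPM was in vehicle replicate 2 for 3 genes and in vehicle replicate 3 for 2 genes.

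The 10 genes did not follow 1 pattern over the 6 libraries. Likeness was measured as the Euclidean distance between log2 CPM values, each gene centred on its own mean over the 6 libraries. The smallest distance was between Hspb6 and Bag3 (0.401), followed by Hspb3 and Hspb6 (0.436), Hspa1a and Hspa1b (0.460), Hspb8 and Bag3 (0.478) and Hspb2 and Cryab (0.514). The largest was between Hspb3 and Hspa1a (2.07). These distances were not particular to the family. Of the tested genes, 1540 were closer to Hspb6 than Bag3 was, and 1250 were closer to Hspb3 than Hspb6 was. Closer to Hspb8 than Bag3 were 225 genes, closer to Cryab than Hspb2 were 91, and closer to Hspa1a than Hspa1b were 13. The values were not scaled by spread, so genes that vary little can be close without a shared pattern. Hspb6 and Bag3 varied least of the 10 genes (SD 0.168 and 0.195 over the 6 libraries). Over all tested genes outside the 10, the closest to Hspa1a were Cadm4 (0.128), Gm32364 (0.229) and Slc35d2 (0.327). The closest to Hspb1 were Srd5a3 (0.226), Asf1b (0.254) and Tsr1 (0.261), and the closest to Cryab were Gm5527 (0.259), Zfp93 (0.265) and Ercc2 (0.271). These are descriptions over 6 libraries, 1 of which stood apart.

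**Figure D4:**
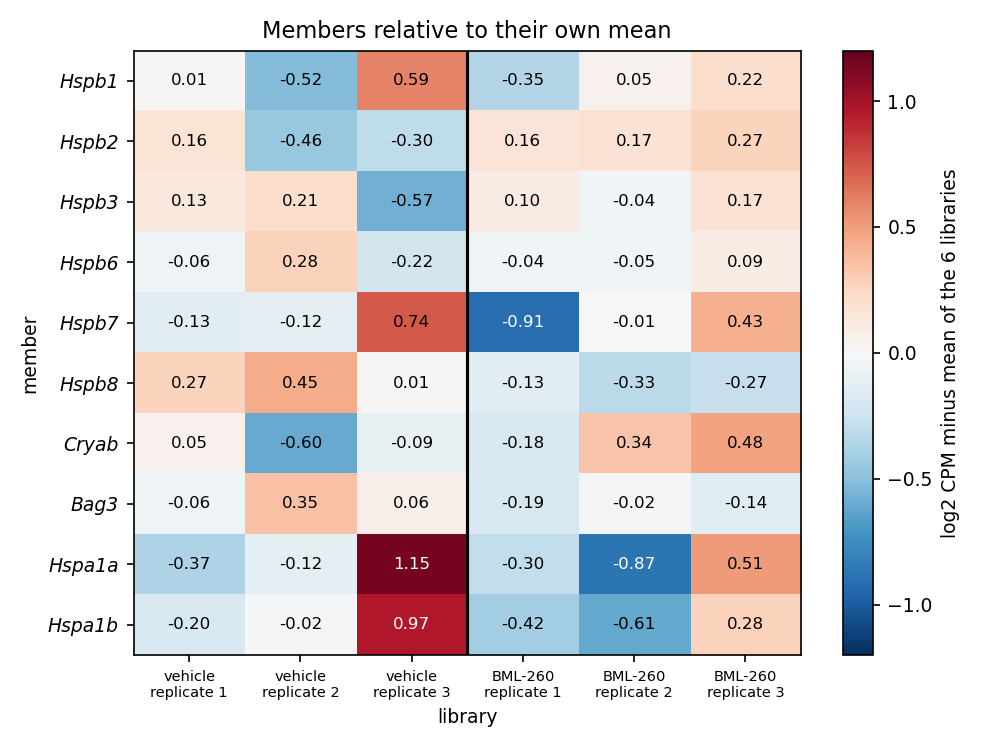
Log2 CPM of the 10 genes (rows) in the 6 libraries (columns), each minus the gene's mean over the libraries, with red above and blue below that mean and the value printed in each cell. Vehicle replicate 3 is red for Hspa1a (1.15), Hspa1b (0.97), Hspb7 (0.74) and Hspb1 (0.59) and blue for Hspb3 (-0.57), and Hspb8 is above 0 in the vehicle libraries and below 0 in the BML-260 libraries.

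The rest of the chaperone network was read from 10 lists that hold 67 further genes, all of them tested. By log2 fold change 33 were lower and 34 higher with BML-260, with a median of 0.0097 and a range from -0.77 to 0.36, and 64 of the 67 lay within 0.5 of 0. Of the 67 genes 1 was called, beside 5.75% of all tested genes, and 3 had an unadjusted p under 0.05 by edgeR: Vim, described below, Hspa2 (log2 fold change -0.38, standard error 0.15), an Hsp70 best known from testis, and Dnajb5 (0.34, standard error 0.14), an Hsp40. Libraries of the groups were apart for 7 of the 67, beside 12.1% of all tested genes. Of the 67, 0 had an adjusted p under 0.05 by edgeR with Benjamini-Hochberg adjustment.

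Hsf1, the main heat shock factor, had 15.0 ± 2.14 CPM (SD, n = 3) with vehicle and 17.4 ± 0.484 CPM (SD, n = 3) with BML-260, with a difference of 0.22 on the log2 scale (standard error 0.15), and 0 of 3 heat shock factors were called. Dnajb1 and Hsph1, heat-inducible cochaperones of Hsp70, had log2 fold changes of -0.17 (standard error 0.19) and 0.065 (standard error 0.19), and that of Hsph1 was -0.090 without vehicle replicate 3. Hspa8, the constitutive Hsp70, was the most abundant of the named cytosolic chaperones at a mean of 758 TPM, and its log2 fold change was -0.051 (standard error 0.18). Of the 10 genes in the list of other Hsp70 and Hsp110 chaperones, 5 were higher and 5 lower and 0 were called. Hsp90ab1 and Hsp90aa1, the constitutive and inducible Hsp90 of the cytosol, had log2 fold changes of -0.22 (standard error 0.19) and -0.42 (standard error 0.24), with 0 of 9 genes of their list called. Without vehicle replicate 3 these values were -0.075 and -0.092.

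Stub1, the ubiquitin ligase of chaperone-assisted selective autophagy, had a difference of 0.16 on the log2 scale (standard error 0.16), which was 0.030 without vehicle replicate 3. Synpo2, which supports autophagosome formation at the Z-disc, had one of 0.19 (standard error 0.16), and Flnc, the filamin cleared by the pathway, one of -0.089 (standard error 0.41), which was 0.42 without vehicle replicate 3. Of the 6 partners in this list 0 were called. In the list of mitochondrial chaperones 5 of 6 genes were higher and 0 were called, with a median of 0.16, and in the list of endoplasmic reticulum chaperones 4 of 9 were higher and 0 were called, with a median of -0.0013. Among the BAG domain genes 4 of 5 and among the cytosolic chaperonins 2 of 8 were higher, with 0 called in either list, and 4 of 8 Hsp40 cochaperones were higher, also with 0 called.

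Of the 6 myofibrillar and filament clients, 2 were higher, 4 were lower and 1 was called. Des, which encodes desmin, the client of alphaB-crystallin, had 2380 ± 448 CPM (SD, n = 3) with vehicle and 2043 ± 201 CPM (SD, n = 3) with BML-260, a difference of -0.22 on the log2 scale (standard error 0.23), which was -0.051 without vehicle replicate 3. The called gene was Vim, which encodes vimentin, a filament protein found mostly in fibroblasts, blood vessel cells and leukocytes of adult muscle. Its CPM was 99.4, 105 and 199 with vehicle and 89.5, 84.7 and 82.6 with BML-260, so that the groups were apart and vehicle replicate 3 was far above the rest. Its log2 fold change was -0.65 (standard error 0.26; unadjusted p = 0.0369, adjusted p = 0.788, edgeR with Benjamini-Hochberg adjustment). The call was lost without vehicle replicate 3, where the log2 fold change was -0.25, and without BML-260 replicate 1 (-0.68), 2 (-0.64) or 3 (-0.63). Of the markers of such cells, 7 of 8 macrophage and all 5 tested neutrophil markers were called as lower with BML-260. Called as lower were also 1 of 6 fibroblast, 0 of 5 endothelial and 0 of 6 smooth muscle and pericyte markers, beside 4.86% of all tested genes. The part of these cells in the Vim value was not tested.

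**Figure D5:**
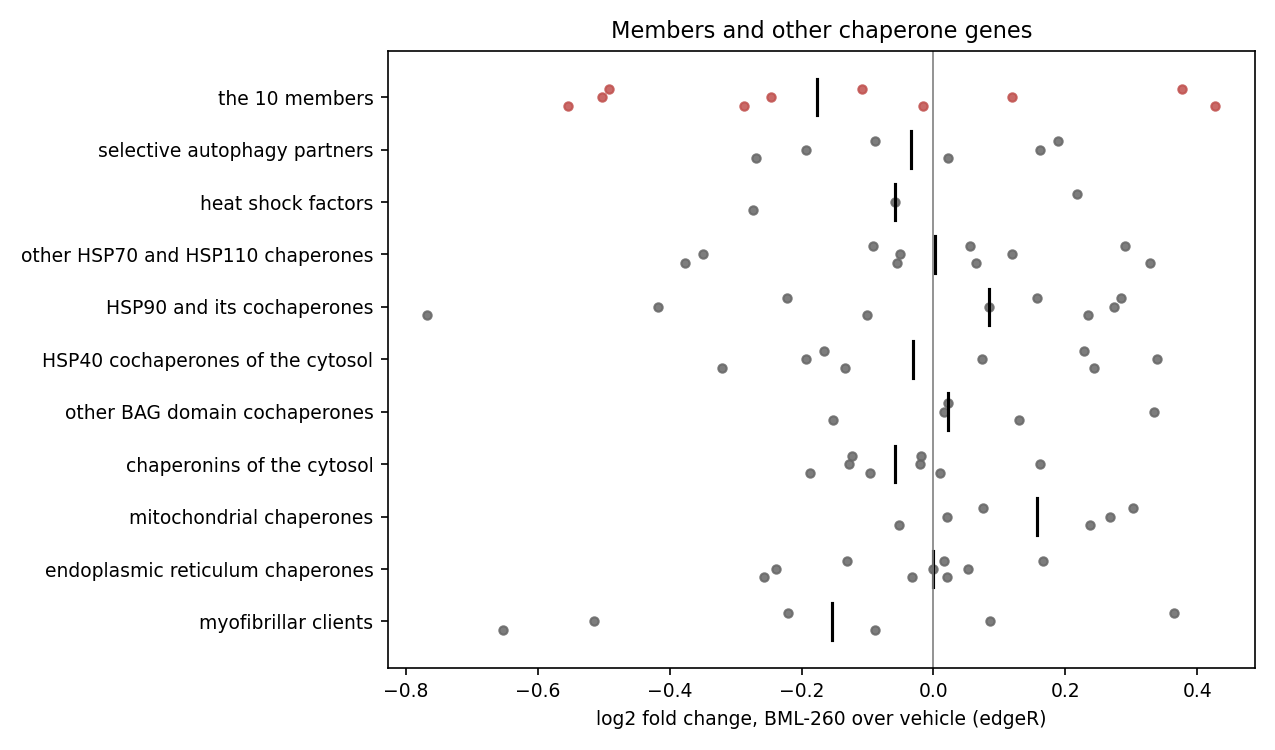
Log2 fold change of BML-260 over vehicle from edgeR for the 10 genes (red) and for the genes of 10 other chaperone lists (grey), 1 point per gene, with a black line at the median of each row. The median of the 10 genes is -0.18 and the medians of the other lists run from -0.15 (myofibrillar clients) to 0.16 (mitochondrial chaperones), and Flnc, Bag1 and Dnajb6 each stand in 2 lists.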

How the data were processed

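The authors sequenced 6 TA libraries made with a stranded total RNA kit. Per the labels, StringTie 2.1.3b, HISAT2 2.1.0, Trimmomatic 0.38 and Bowtie2 2.3.4.1 were used with the mouse build mm10. The authors deposited raw counts per gene, and TPM per gene for 16800 genes. The annotation release and the handling of strand and multi-mapped reads are not given in the sources used here.

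Counts were tested with edgeR 4.0.16 under R 4.3.3 (TMM scaling, filterByExpr, quasi-likelihood test, Benjamini-Hochberg adjustment), and CPM are TMM-scaled. Alternatives used DESeq2 1.42.0 and limma 3.58.1. The edgeR, DESeq2 and limma voom tests were tried on simulated counts, and the permutation test on small made-up examples. The limma fits on log2 TPM were not tried on simulated data. Depth was 39522890 to 56998875 counts per library, and the smallest count of any of the 10 genes was 156 (Hspa1a). The labels tell the mice apart only by number, and p-values set the difference between the groups against the spread between these libraries. TPM were compared only as levels, as ratios and in limma fits on log2 values. Locations, overlaps and upstream sequences came from RefSeq on GRCm38.p6, and coding sequences from the mm10 genome with Gencode models. Python 3.11.15 with matplotlib 3.10.9 made the figures.

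The 10 genes, the chaperone and marker lists and the tests were chosen with earlier results of these data known. The genes named are the 10 members, 10 further chaperone genes taken whatever their values, any gene of the other chaperone lists at the threshold (Vim), and the 3 nearest genes to Hspb1, Cryab and Hspa1a. The 3 ratios, Hspa2, Dnajb5 and Ly6g were chosen after values were seen.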

Additional observations from a re-analysis of the deposited data

How the results depend on the processing

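Under the 15 alternatives, the log2 fold changes of the 10 genes kept their direction in 139 of 150 values, and 5 genes never turned (Hspb2, Hspb8, Cryab, Bag3 and Hspa1b). Values that turned were Hspb1 (0.22 without vehicle replicate 3, 0.039 without BML-260 replicate 1 and 0.19 with limma voom and sample quality weights), Hspb3 (-0.088 without vehicle replicate 3 and -0.030 with voom), Hspb6 (0.14 without vehicle replicate 2, 0.0028 without BML-260 replicate 1 and 0.014 without BML-260 replicate 2), Hspb7 (0.064 without vehicle replicate 3 and 0.0041 without BML-260 replicate 1) and Hspa1a (0.13 without vehicle replicate 3). With each library left out in turn, these genes ranged from -0.34 to 0.22 (Hspb1), -0.088 to 0.26 (Hspb3), -0.12 to 0.14 (Hspb6), -0.61 to 0.064 (Hspb7) and -0.95 to 0.13 (Hspa1a). Among the other genes named, Flnc turned (0.42 without vehicle replicate 3, 0.17 without BML-260 replicate 1 and 0.22 with voom; range over leaving out a library -0.38 to 0.42), as did Hsph1 (0.065 with all libraries; -0.090 without vehicle replicate 3, -0.049 without BML-260 replicate 2, range -0.090 to 0.22, -0.041 with voom, -0.052 and -0.054 on log2 TPM with a pseudocount of 1 and 0.1). Hspa8 turned to 0.0070 without vehicle replicate 1 (range -0.13 to 0.0070) and 0.0025 with voom, and Hsf1 to -0.023 and -0.024 on log2 TPM with a pseudocount of 1 and 0.1. The cause was not tested beyond the library left out. The number of the 10 genes called ranged from 0 to 2 when 1 library was left out (1 with all libraries). It was 0 without vehicle replicate 2, BML-260 replicate 2 or BML-260 replicate 3. Of all tested genes, from 3.00% (without BML-260 replicate 2) to 13.3% (without vehicle replicate 1) were called when 1 library was left out. With voom 3 of the 10 were called (Hspb8, Hspb2 and Cryab), where 5.50% of all tested genes were called. The number lower ranged from 4 (without BML-260 replicate 1) to 7 when 1 library was left out and was 7 in the other alternatives. Of the 67 other chaperone genes, from 0 to 9 were called when 1 library was left out (9 without vehicle replicate 1, where 13.3% of all tested genes were called, and 0 without BML-260 replicate 1 or 3), 2 with at least 10 counts in every library, 2 with voom, and 0 with limma on log2(TPM + 1), filtered or not. Vim was called in 6 of the 15 alternatives and lower in all of them (-0.83 to -0.25). On log2 TPM the median of all genes shifted to between -0.13 and -0.089.

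Replicate numbers recur in both groups but mark different mice. Same-numbered libraries had deviations correlated at 0.16, 0.054 and 0.11 over genes, and each library correlated best with its own number, a hint from the data only. With the replicate block 2 of the 10 genes were called, Hspb8 and Hspa1b (log2 fold change -0.50), and 0 of the 67 others, and 1057 of all tested genes in place of 931.

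At an adjusted p under 0.05 the number of all tested genes was 0 with edgeR on all libraries, 95 with DESeq2, 9 and 6 with edgeR without vehicle replicate 1 and 3, and 1 each with no filter on low counts, with at least 10 counts in every library and with voom. It was 0 in the remaining alternatives, and 0 of the 10 genes were among them in any. Under edgeR with Benjamini-Hochberg adjustment and the other tools, the adjusted p of Hspb8 ranged from 0.279 to 0.984.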
